A study of Mus musculus with 6 samples.

Results

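The genes that encode collagen chains were examined in C2C12 cells, a mouse myoblast line that fuses into myotubes when serum is reduced. Members were chosen by name: every gene on the array whose symbol is Col, a number, the letter a and a number. This gave 42 of the 19505 genes measured, each with 1 probe set. RNA was profiled with Clariom S mouse arrays, 6 in all and 2 per group, after 3 days in differentiation medium with 2% horse serum. MyoD + Dox cells carried an integrated lentiviral Myod1 transgene under a doxycycline-inducible promoter and received doxycycline. Uninduced cells carried the same transgene without doxycycline. Non-transduced cells carried no virus and received doxycycline. All cells kept their own Myod1 gene. Transduced cells were selected with blasticidin as a population in culture, so copies of the transgene can differ between cells. An empty-vector group was not among the arrays analysed. Whether the arrays of a group stand for separate cultures is not stated in the labels, so the p-values below cover the spread between arrays, which may be only technical.

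Collagens are extracellular matrix proteins in which chains wind into helical trimers. Fibrillar collagens such as types I, III and V form the fibrils that bear tension, and network collagens such as type IV form the sheet of the basement membrane. Type VI collagen assembles into beaded filaments that tie the basement membrane of muscle fibers to the matrix around it. FACITs sit on the surface of fibrils, transmembrane collagens are anchored in the plasma membrane, and multiplexins are basement membrane collagens with interrupted helices. In muscle, fibroblasts and related mesenchymal cells are the main source of fibrillar and type VI collagen, and myogenic cells make some as well. By class the 42 genes comprised 11 fibrillar, 9 network, 6 beaded filament, 8 FACIT, 4 transmembrane and 2 multiplexin chains, with Col26a1 and Col28a1 placed in none of these classes. Col12a1 and Col7a1 were not analysed here.

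A signal is given as log2 of the deposited intensity, and the background of an array was read as the 90th percentile over 23 probe sets for background, which lay at a log2 signal of 6.01 to 6.15. Of the 42 chains, 15 were above background on all 6 arrays, 4 on some arrays and 23 on 0 arrays. Over all genes 44.4% were above it on all 6 arrays, against 35.7% of the chains. The 15 were the fibrillar chains Col1a1, Col1a2, Col3a1, Col5a1, Col5a2 and Col11a2, the network chains Col4a2 and Col8a2, the type VI chains Col6a1, Col6a2 and Col6a3, the FACITs Col16a1 and Col20a1, the transmembrane Col13a1 and the multiplexin Col18a1. The 4 were Col8a1, Col5a3, Col9a3 and Col23a1. Levels of different probe sets are not ranked here. Where 2 probe sets are subtracted within an array, only the change of that difference between arrays is read.

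The arrays differed in ways that the groups do not account for. Replicate signals correlated over all genes at Pearson r 0.992 in MyoD + Dox cells, 0.991 in uninduced cells and 0.965 in non-transduced cells. At least 2-fold apart were 8 chains between the non-transduced arrays, 2 between the MyoD + Dox arrays and 1 between the uninduced arrays. Of all 19505 genes, 2921, 589 and 739 were that far apart, in the same order. On the first principal component, with 68.4% of the variance, the scores set non-transduced array 2 at 90.9 and array 1 at -30.2, while the MyoD + Dox arrays lay at 7.55 and 37.0 and the uninduced arrays at -37.1 and -68.0. Myod1, which the transgene encodes, had log2 signals of 11.51 and 12.54 in MyoD + Dox cells, 8.996 and 7.91 in uninduced cells and 8.72 and 10.68 in non-transduced cells, so the MyoD + Dox arrays were the highest. The 7 myogenic markers (Des, Myog, Mymk, Mymx, Myh3, Ckm and Cdh15) had a mean log2 signal of 14.01 and 14.08 in MyoD + Dox cells, 12.59 and 10.62 in uninduced cells and 12.75 and 15.04 in non-transduced cells, and 6 of the 7 were above background on all arrays. No marker of adipocytes, macrophages or endothelium was above background on any array (0 of 4, 0 of 3 and 0 of 3).

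The 250 bases upstream of the annotated start are shown for 5 chains whose signals are described in full below, because MyoD binds the E box, whose letters are CANNTG. Capitals mark every CANNTG in these windows, which come from RefSeq on GRCm38.p6, written 5' to 3' on the strand of the gene.
Col8a1 (chr16:57754738-57754987, minus strand): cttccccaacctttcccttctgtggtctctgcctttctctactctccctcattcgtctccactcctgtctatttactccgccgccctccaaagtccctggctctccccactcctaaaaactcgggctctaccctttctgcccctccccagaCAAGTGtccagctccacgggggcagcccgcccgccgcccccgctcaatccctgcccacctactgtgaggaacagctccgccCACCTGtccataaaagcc
Col5a1 (chr2:27886175-27886424, plus strand): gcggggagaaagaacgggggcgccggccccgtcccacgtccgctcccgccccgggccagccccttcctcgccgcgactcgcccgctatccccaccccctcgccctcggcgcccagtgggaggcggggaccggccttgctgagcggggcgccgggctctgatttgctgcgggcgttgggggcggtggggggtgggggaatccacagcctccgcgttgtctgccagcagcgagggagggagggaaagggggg
Col6a1 (chr10:76726045-76726294, minus strand): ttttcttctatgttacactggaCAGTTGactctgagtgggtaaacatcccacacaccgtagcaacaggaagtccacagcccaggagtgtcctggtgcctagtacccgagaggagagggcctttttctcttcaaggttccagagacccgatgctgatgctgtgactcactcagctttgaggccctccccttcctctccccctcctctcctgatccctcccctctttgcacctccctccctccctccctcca
Col6a2 (chr10:76623631-76623880, minus strand): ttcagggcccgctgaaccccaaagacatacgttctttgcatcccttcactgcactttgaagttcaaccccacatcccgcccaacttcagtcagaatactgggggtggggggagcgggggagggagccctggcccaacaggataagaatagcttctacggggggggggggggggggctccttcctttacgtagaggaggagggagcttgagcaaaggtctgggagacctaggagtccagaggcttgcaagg
Col3a1 (chr1:45311288-45311537, plus strand): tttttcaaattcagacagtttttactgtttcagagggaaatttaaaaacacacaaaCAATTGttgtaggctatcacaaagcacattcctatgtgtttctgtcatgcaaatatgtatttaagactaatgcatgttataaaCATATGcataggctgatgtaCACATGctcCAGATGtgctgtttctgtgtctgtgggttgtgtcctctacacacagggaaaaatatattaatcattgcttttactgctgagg
Col8a1 held CAAGTG at bases 99 to 94 before the start and CACCTG at bases 18 to 13. Col6a1 held CAGTTG at bases 228 to 223, and Col3a1 held 4 E boxes, while no CANNTG was found in the windows of Col5a1 and Col6a2. Windows were available for 34 of the 42 chains, and Col5a2 and Col1a1 had none. CANNTG, searched on both strands, was present in 52.9% of the 34 windows and in 66.1% of all 27025 windows. CAGCTG, an E box core often found at MyoD sites and contained in CANNTG, was in 17.6% of the chain windows and 12.7% of all windows, CCAAT in 32.4% and 34.5%, GGGCGG in 58.8% and 33%, and TATAAA in 14.7% and 13%. These matches describe letters and not binding.

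The first comparison asks how collagen transcripts differed when the transgene was induced, MyoD + Dox against uninduced cells. This comparison cannot tell the effects of MyoD from those of doxycycline, which the uninduced cells did not receive. No chain passed limma's test after Benjamini-Hochberg adjustment over 19505 genes, and neither did any other gene (0% of all genes). Myod1, which the transgene encodes, differed by 3.57 and also had an adjusted limma p of 0.670. The lowest adjusted limma p of a chain was 0.670. By limma's unadjusted p at the same threshold, Col5a2 was the 1 chain that was higher and Col8a1 and Col6a6 the 2 that were lower, where the shares of all genes were 4.22% higher and 3.19% lower. Both MyoD + Dox arrays lay above both uninduced arrays for 6 chains (23.8% of all genes) and below both for 15 chains (24.8% of all genes). The median difference was -0.11 on the log2 scale over the 42 chains and -0.0092 over all genes, and with signals raised to background the median over the chains turned to 0.10, since the 23 chains under background then take the difference between the arrays' backgrounds. With 2 arrays against 2, the smallest p that an exact permutation test allows for any chain is 0.333. In these bulk samples, fewer cells of a type and less RNA per cell cannot be told apart.

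The comparison with non-transduced cells asks how the induced cells differed from cells without the virus that had received the same drug. This comparison cannot tell apart the effects of MyoD, transduction and selection. It again gave 0 chains and 0% of all genes after adjustment, with an adjusted p of 0.99998 for every chain. At an unadjusted p under 0.05, 0 chains were higher (1.6% of all genes) and 2 were lower (1.34% of all genes), Col8a1 and Col11a1. Both MyoD + Dox arrays lay above both non-transduced arrays for 5 chains (13.9% of all genes) and below both for 11 (14.3% of all genes), and the median difference was -0.052, or 0.076 with signals raised to background, against 0.0012 over all genes. The third comparison, uninduced against non-transduced cells, sets transduced cells without the drug against cells without the virus that had received it, so that the effects of transduction, selection and doxycycline cannot be told apart. It gave 0 chains after adjustment (0% of all genes). By the unadjusted p 0 chains were higher and Col5a1 was the 1 that was lower, where the shares of all genes were 3.11% higher and 3.12% lower. Both uninduced arrays lay above both non-transduced arrays for 7 chains (19.2% of all genes) and below both for 9 (19.2% of all genes). Without non-transduced array 1, array 2 was the only array of its group. Uninduced minus non-transduced cells then gave 3.91 for Col6a1 and -1.65 for Col5a1, in place of 2.07 and -1.10. Without non-transduced array 2 instead, the differences were 0.24 for Col6a1 and -0.55 for Col5a1. These comparisons share arrays, so their counts are not independent of each other.

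Set against all 4 other arrays at the same time, both MyoD + Dox arrays were the lowest for 7 chains (6.13% of all genes) and the highest for 3 (6.08% of all genes). Among the 7, Col8a1, Col8a2 and Col9a3 had signals above background on some or all arrays, as did Col20a1, while Col11a1, Col28a1 and Col6a6 were not above background on any array. Among the 3, only Col5a2 was above background, and Col4a1 and Col4a6 were not above it on any array.

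**Figure D1:**
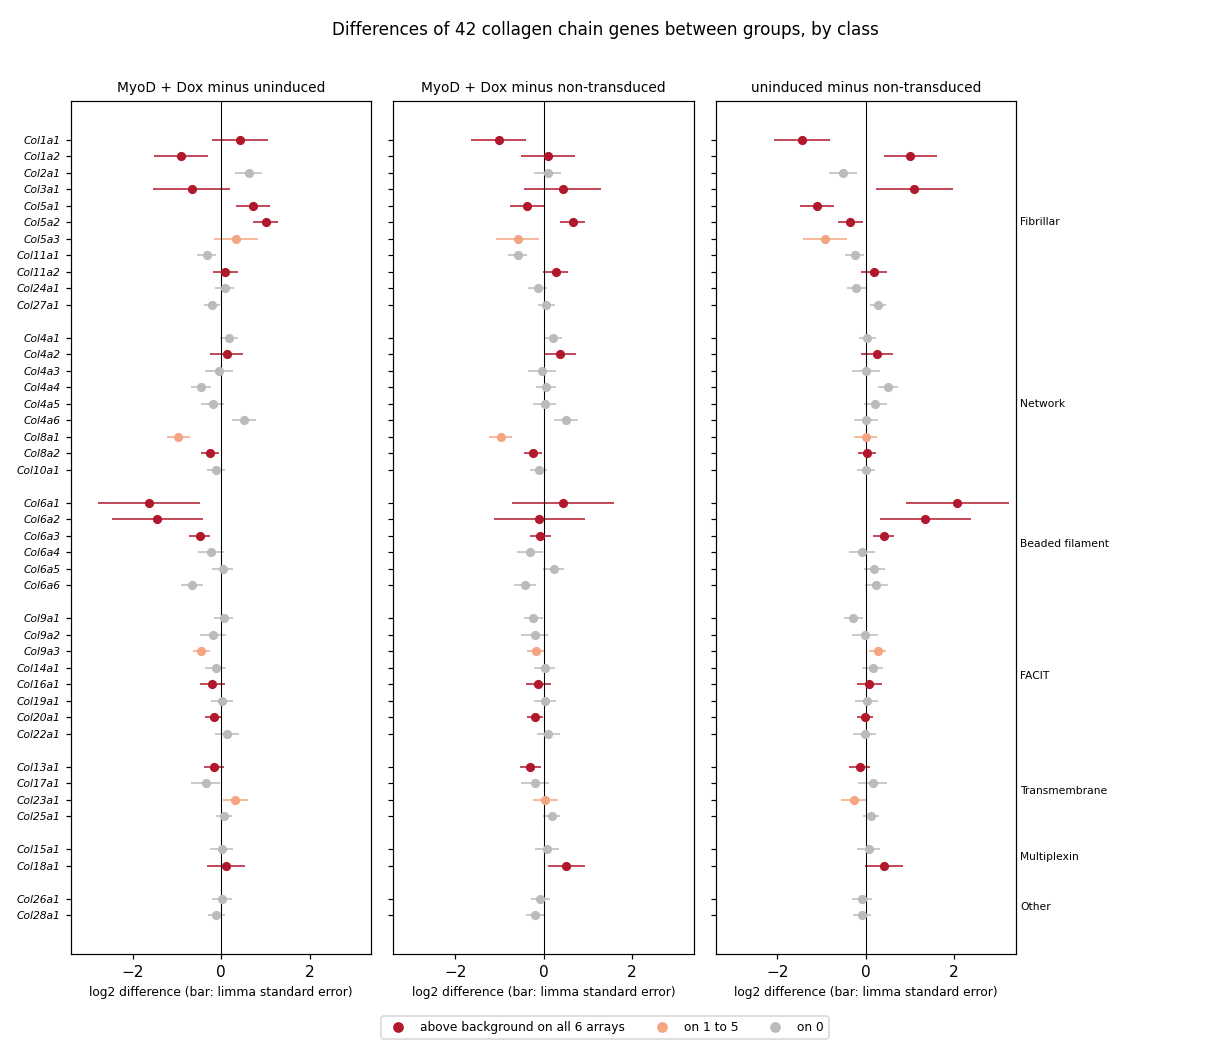
Log2 differences of the 42 collagen chain genes (rows, grouped by class) in the 3 comparisons (panels), each with its limma standard error as a bar; colour gives the number of arrays above background. Col8a1, whose mean in MyoD + Dox cells was under background, lay at -0.97 in both panels that hold these cells (-0.64 with signals raised to background), Col5a2 at 1.01 and 0.66, and Col6a1 and Col6a2 at -1.63 and -1.45 against uninduced cells with wide errors.

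Col8a1 encodes a short-chain collagen of type VIII that forms hexagonal networks in the subendothelial and corneal matrix. Its log2 signals were 6.11 and 5.49 in MyoD + Dox cells, 6.73 and 6.81 in uninduced cells and 6.83 and 6.71 in non-transduced cells. The 4 arrays without induction lay within a narrow band, and both MyoD + Dox arrays were below it, the first at about the background of its array and the second under it. The difference was -0.97 against uninduced cells (SE 0.26, adjusted limma p 0.670) and -0.97 against non-transduced cells (SE 0.26, adjusted limma p 0.99998). Uninduced and non-transduced cells differed by -0.0020 (SE 0.26), less than the spread between replicates. Since the MyoD + Dox mean of 5.80 was under the background of those arrays, the size of the difference is uncertain and no fold is given: with signals raised to background it was -0.64 against either group. Leaving out MyoD + Dox array 1 gave -1.28 against uninduced cells, and leaving out array 2 gave -0.66. Col8a2, the partner chain of type VIII, had 8.07 and 7.76 in MyoD + Dox cells, 8.14 and 8.22 in uninduced cells and 8.09 and 8.22 in non-transduced cells, so both MyoD + Dox arrays were again the lowest, with smaller differences of -0.26 against uninduced cells (SE 0.21) and -0.24 against non-transduced cells (SE 0.21). Col8a2 stayed well above background on all 6 arrays.

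Col5a2 encodes the alpha 2 chain of type V collagen, a minor fibrillar collagen that nucleates type I fibrils and limits their width. Its log2 signals were 11.97 and 12.60 in MyoD + Dox cells, 11.41 and 11.15 in uninduced cells and 11.76 and 11.50 in non-transduced cells. Both MyoD + Dox arrays were above the other 4. The difference was 1.01 against uninduced cells (SE 0.28, adjusted limma p 0.670), or 2.01-fold, and 0.66 against non-transduced cells (SE 0.28, adjusted limma p 0.99998). Leaving out MyoD + Dox array 2 gave 0.69 and 0.34, and leaving out array 1 gave 1.32 and 0.97. Col5a1, the alpha 1 chain of the same trimer, had 9.04 and 8.98 in MyoD + Dox cells, 8.48 and 8.10 in uninduced cells and 8.84 and 9.94 in non-transduced cells. It was thus higher in MyoD + Dox than in uninduced cells on both arrays (0.72, SE 0.39), but non-transduced array 2 was the highest of all. Uninduced minus non-transduced cells gave -1.10 (SE 0.39, adjusted limma p 0.637), and without non-transduced array 2 that difference was -0.55. Col5a3, the third type V chain, was above background only on non-transduced array 2, at 6.21, and lay between 4.45 and 5.04 on the other 5 arrays.

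**Figure D2:**
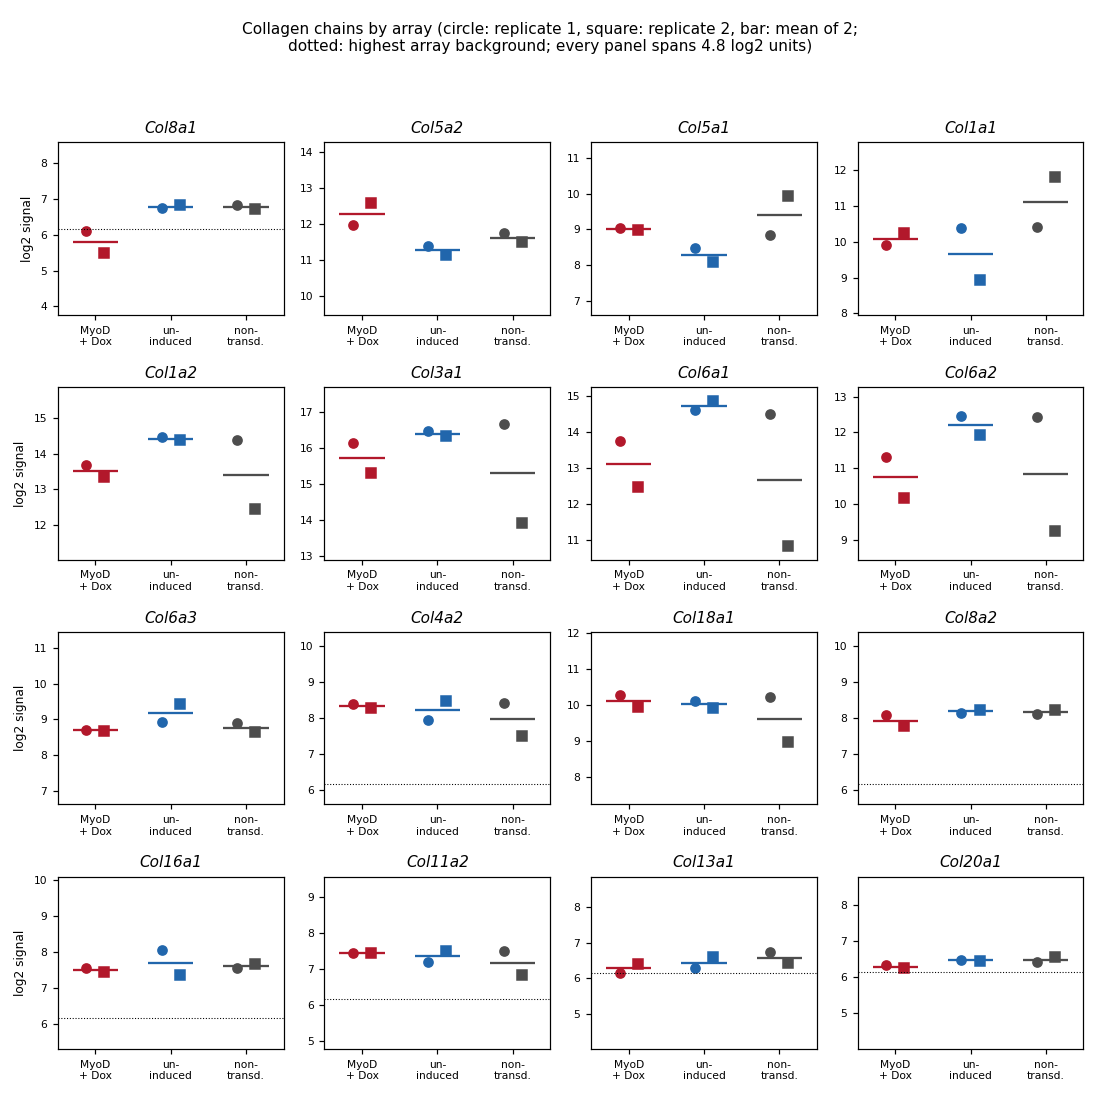
Log2 signal of 16 collagen chains (15 above background on all 6 arrays, and Col8a1) on each array, with circles for replicate 1, squares for replicate 2 and a bar at the mean of the 2; all panels span the same height, and the dotted line is the highest background of an array, drawn where it falls within the panel. Both MyoD + Dox arrays lie below the other 4 for Col8a1 and above them for Col5a2, and the 2 non-transduced arrays lie far apart for Col6a1 (14.50 and 10.84) and Col3a1 (16.68 and 13.91).

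Type I collagen, the main collagen of fibrils, is a trimer of Col1a1 and Col1a2 chains, and their signals did not run in parallel. Col1a1 had log2 signals of 9.92 and 10.23 in MyoD + Dox cells, 10.38 and 8.92 in uninduced cells and 10.40 and 11.79 in non-transduced cells. Col1a2 had 13.67 and 13.34 in MyoD + Dox cells, 14.45 and 14.38 in uninduced cells and 14.37 and 12.44 in non-transduced cells. Non-transduced array 2 thus had the highest Col1a1 and the lowest Col1a2 of the 6 arrays. For Col1a1 the MyoD + Dox arrays overlapped the uninduced arrays (0.42, SE 0.63), and the sign turned to -0.31 without uninduced array 2. For Col1a2 both MyoD + Dox arrays were below both uninduced arrays (-0.91, SE 0.60, adjusted limma p 0.709), and overlapped the non-transduced arrays (0.099, SE 0.60), a difference that was -0.87 without non-transduced array 2 and 1.06 without array 1. The within-array difference Col1a1 minus Col1a2, which cancels anything that moves both probe sets alike, was on average 1.33 greater in MyoD + Dox than in uninduced cells, without overlap of the arrays. Between MyoD + Dox and non-transduced cells it differed by -1.12. The non-transduced arrays, at -3.97 and -0.65, lay on both sides of the MyoD + Dox arrays.

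Col3a1 encodes the chain of type III collagen, which forms fine fibrils with type I in muscle connective tissue. It had 16.14 and 15.31 in MyoD + Dox cells, 16.46 and 16.32 in uninduced cells and 16.68 and 13.91 in non-transduced cells. Both MyoD + Dox arrays were below both uninduced arrays (-0.67, SE 0.87), but non-transduced array 2 was lower than either. The difference against non-transduced cells was 0.43 (SE 0.87) and became -0.95 without non-transduced array 2. Col3a1 and Col5a2 are neighbours on chromosome 1, with 0 protein-coding genes between them in RefSeq. The within-array difference Col3a1 minus Col5a2 differed by -1.68 between MyoD + Dox and uninduced cells. Between MyoD + Dox and non-transduced cells it differed by -0.22. Col11a2, a chain of the type XI collagen of cartilage, ranged over 0.68 log2 units with overlapping groups (0.091 against uninduced cells, SE 0.28). The other fibrillar chains (Col2a1, Col11a1, Col24a1 and Col27a1) were not above background on any array. Over the 11 fibrillar chains the median difference was 0.091 against uninduced cells, with 7 positive and 4 negative.

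The type VI chains held the largest differences among the collagens against uninduced cells. Col6a1 had log2 signals of 13.75 and 12.48 in MyoD + Dox cells, 14.61 and 14.87 in uninduced cells and 14.50 and 10.84 in non-transduced cells. Col6a2 had 11.32 and 10.18 in MyoD + Dox cells, 12.47 and 11.93 in uninduced cells and 12.44 and 9.25 in non-transduced cells. For both genes the MyoD + Dox arrays were below the uninduced arrays, with differences of -1.63 for Col6a1 (SE 1.16, adjusted limma p 0.721, 3.10-fold) and -1.45 for Col6a2 (SE 1.03, adjusted limma p 0.721, 2.72-fold). These sizes rest on both MyoD + Dox arrays, since Col6a1 gave -2.26 without array 1 and -0.998 without array 2, and Col6a2 gave -2.02 and -0.88. Non-transduced array 1 was close to the uninduced arrays, and non-transduced array 2 was the lowest of the 6 for both. Against non-transduced cells Col6a1 differed by 0.44 (SE 1.16), with -1.39 when array 2 of those cells was left out and 2.27 when array 1 was. Col6a2 differed by -0.097 (SE 1.03), with -1.69 and 1.498 in the same settings. Non-transduced array 2 minus array 1 was -3.66 for Col6a1, larger than any difference between groups for a collagen chain, and that spread enters the standard error of all 3 comparisons.

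Col6a1 and Col6a2, whose products join Col6a3 in the type VI trimer, are neighbours on chromosome 10 with 0 protein-coding genes between them. The within-array difference Col6a1 minus Col6a2 differed by -0.18 between MyoD + Dox and uninduced cells. Against non-transduced cells it differed by 0.54 for MyoD + Dox and by 0.72 for uninduced cells. It ranged from 1.58 to 2.94 over the 6 arrays, and between the uninduced arrays these genes moved in opposite directions. Col6a3 had 8.70 and 8.69 in MyoD + Dox cells, 8.94 and 9.42 in uninduced cells and 8.89 and 8.66 in non-transduced cells. Its MyoD + Dox arrays were also below the uninduced arrays, with a smaller difference of -0.49 (SE 0.24, adjusted limma p 0.682). Col6a1 minus Col6a3 thus differed by -1.15 between MyoD + Dox and uninduced cells, and by 0.52 between MyoD + Dox and non-transduced cells. Col6a4, Col6a5 and Col6a6 were not above background on any array. Over the 6 beaded filament chains the median difference was -0.58 against uninduced cells, where 5 of 6 were negative, and 3 of the 6 chains were under background.

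Markers of differentiation and of fibroblasts differed between the arrays alongside these chains, and their part in the collagen values was not tested. The order of Col6a1 and of Col6a3 over the 6 arrays was the exact reverse of that of the mean of the 7 myogenic markers. This reverse order was held by 2 of the 42 chains and by 505 of all 19505 genes. Col5a3, above background on 1 array, had the same order as the myogenic mean. Des, the muscle intermediate filament, had 15.69 and 15.92 in MyoD + Dox cells, 14.57 and 12.53 in uninduced cells and 14.52 and 16.67 in non-transduced cells. Of the 6 fibroblast markers 5 were measured, all but Pdgfra. Dcn, which encodes the proteoglycan decorin, had 15.23 and 9.46 in MyoD + Dox cells, 17.88 and 17.90 in uninduced cells and 17.31 and 7.15 in non-transduced cells, again lowest on non-transduced array 2. The summed intensity of the 5 was 38766 and 825 in MyoD + Dox cells, 242607 and 245108 in uninduced cells and 163228 and 242 in non-transduced cells, a sum of which Dcn made up the largest part on every array. Lum and Twist2 were above background on some arrays, and for both the MyoD + Dox arrays lay below the uninduced arrays. Thy1 and Tcf21 were not above background on any array. Of 6 osteoblast and chondrocyte markers, Sox9 was above background on all arrays, with 11.996 and 11.79 in MyoD + Dox cells, 13.27 and 14.12 in uninduced cells and 12.23 and 13.18 in non-transduced cells, Acan was above it on 1 array and the other 4 on 0.

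**Figure D3:**
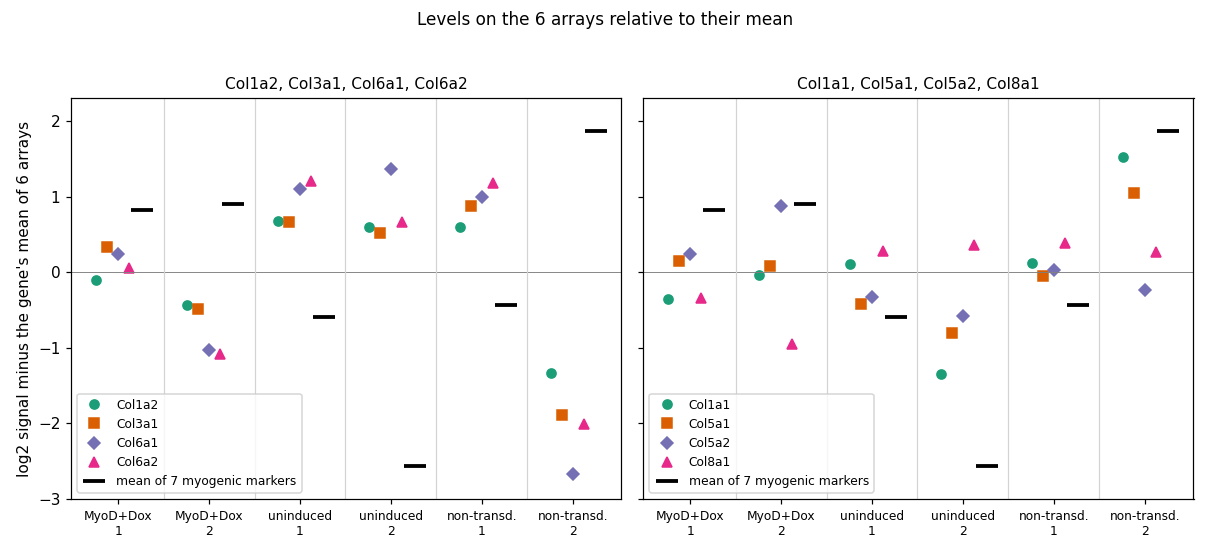
Log2 signal on each of the 6 arrays minus the mean of the 6 for Col1a2, Col3a1, Col6a1 and Col6a2 (left) and Col1a1, Col5a1, Col5a2 and Col8a1 (right), with the mean of 7 myogenic markers as black bars. The left chains are lowest on non-transduced array 2, where Col1a1, Col5a1 and the myogenic mean are highest, while Col8a1 is lowest and Col5a2 highest on the MyoD + Dox arrays.

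The 2 non-transduced arrays, whose labels give the same treatment, were far apart for several chains. Of the 15 chains above background on all 6 arrays, non-transduced array 2 was the highest for 4 and the lowest for 8, together 80%, against 62.5% of all genes above background on all 6. Array 2 minus array 1 in those cells had the same sign as MyoD + Dox minus uninduced, a difference that shares no array with it, for 24 of 42 chains (57.1%), against 64.9% of all genes. Of features above background on all 6 arrays the shares were 53.3% of the 15 chains and 75.6% of all such genes. Between both differences Pearson's r was 0.669 and Spearman's rho 0.288 over the 42 chains, against 0.691 and 0.509 over all genes. Of features above background on all 6 arrays, the 15 chains gave 0.808 and 0.596 and all such genes 0.765 and 0.718. These values are a description across genes, which are not independent replicates. For Col5a2 the MyoD + Dox minus uninduced difference was 1.01 and non-transduced array 2 minus array 1 was -0.27, and for Col8a1 these were -0.97 and -0.12. Both chains had an unadjusted limma p under 0.05 against uninduced cells. The spread in that p includes the gap between the non-transduced arrays, so a small gap here is not independent of it.

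Among basement membrane chains, Col4a2, a chain of the type IV network of every basement membrane, had 8.40 and 8.27 in MyoD + Dox cells, 7.95 and 8.48 in uninduced cells and 8.43 and 7.51 in non-transduced cells, with overlapping groups (0.12 against uninduced cells, SE 0.36). Its trimer partner Col4a1 had 5.71 and 5.70 in MyoD + Dox cells, 5.38 and 5.67 in uninduced cells and 5.47 and 5.51 in non-transduced cells, under background on all arrays. Col18a1, the multiplexin whose C-terminal fragment is endostatin, had 10.28 and 9.95 in MyoD + Dox cells, 10.11 and 9.91 in uninduced cells and 10.22 and 8.97 in non-transduced cells, so that 5 arrays were close and non-transduced array 2 lower (0.10 against uninduced cells, SE 0.43). Col15a1, the other multiplexin and a basement membrane chain of muscle, lay between 3.23 and 3.86, under background on every array.

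Among FACITs, Col16a1 had 7.55 and 7.45 in MyoD + Dox cells, 8.04 and 7.35 in uninduced cells and 7.56 and 7.67 in non-transduced cells. Col20a1 stayed within 0.31 log2 units over the 6 arrays, at 6.25 to 6.56, close to the array backgrounds of 6.01 to 6.15. Col9a3, a type IX chain known from cartilage, had 6.03 and 5.96 in MyoD + Dox cells, both not above background, 6.43 and 6.46 in uninduced cells and 6.30 and 6.04 in non-transduced cells. It was at least 1.24-fold lower in MyoD + Dox than in uninduced cells, where the bound sets the mean of the uninduced arrays against the background of the MyoD + Dox arrays (adjusted limma p 0.677). Col14a1, a FACIT of muscle connective tissue, lay between 3.65 and 4.18, and Col22a1, known from the muscle-tendon junction, between 5.46 and 6.02, both under background on every array. Over the 8 FACITs the median difference was -0.15 against uninduced cells, with 0 at an unadjusted limma p under 0.05. Of these 8 chains, 5 were not above background on any array. Of the transmembrane chains, Col13a1, which acts at the neuromuscular junction, had 6.14 and 6.41 in MyoD + Dox cells, 6.28 and 6.61 in uninduced cells and 6.73 and 6.44 in non-transduced cells. Col25a1, which is needed for motor innervation, lay between 4.13 and 4.39, under background on every array. Col23a1 was above background on 2 arrays and Col17a1 on 0.

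Enzymes and chaperones that make collagen were set beside the chains, and 31 of 35 listed genes were measured, 26 of them above background on all 6 arrays. After adjustment 0 of them passed in MyoD + Dox against uninduced cells; by the unadjusted p under 0.05 there were 4 with higher and 2 with lower signals (4.22% and 3.19% of all genes), and 22 of 31 differences were negative (9960 of 19505 over all genes), with a median of -0.25. Hydroxylases of proline and lysine lay in both directions. P4ha1 and P4ha2 are catalytic subunits of prolyl 4-hydroxylase, which stabilises the collagen helix. P4ha1 had 15.07 and 14.79 in MyoD + Dox cells, 14.45 and 14.21 in uninduced cells and 14.88 and 14.48 in non-transduced cells (0.60 against uninduced cells, SE 0.24). P4ha2 had 10.65 and 11.31 in MyoD + Dox cells, 10.20 and 9.79 in uninduced cells and 10.85 and 11.67 in non-transduced cells (0.98, SE 0.38). The uninduced arrays were the lowest for both genes. Plod1, a lysyl hydroxylase, was likewise lowest in uninduced cells, with 11.62 and 11.92 in MyoD + Dox cells, 11.26 and 11.04 in uninduced cells and 11.93 and 11.68 in non-transduced cells (0.62, SE 0.22). P3h2, a prolyl 3-hydroxylase active on type IV collagen, was highest in uninduced cells: it had 8.07 and 8.16 in MyoD + Dox cells, 9.47 and 10.49 in uninduced cells and 8.24 and 7.30 in non-transduced cells (-1.87, SE 0.45, adjusted limma p 0.670).

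Genes of propeptide processing also lay in both directions. Adamts14, a procollagen N-propeptidase, had 9.60 and 8.91 in MyoD + Dox cells, 8.08 and 6.59 in uninduced cells and 9.22 and 9.96 in non-transduced cells (1.92, SE 0.56, adjusted limma p 0.670). Pcolce2, an enhancer of C-propeptide cleavage, had 9.83 and 9.56 in MyoD + Dox cells, 10.44 and 10.87 in uninduced cells and 10.08 and 9.83 in non-transduced cells (-0.96, SE 0.25). For both, the MyoD + Dox arrays did not overlap the uninduced arrays. In uninduced against non-transduced cells 2 processing genes were higher at an unadjusted p (P3h2 by 2.21 and Pcolce2 by 0.70) and 3 were lower (P4ha2 by -1.26, Plod1 by -0.66 and Adamts14 by -2.25), where 3.11% and 3.12% of all genes were. MyoD + Dox against non-transduced cells gave 0 in either direction, where 1.6% and 1.34% of all genes were. Serpinh1, the collagen chaperone HSP47, had 13.94 and 13.86 in MyoD + Dox cells, 14.33 and 14.01 in uninduced cells and 14.38 and 14.06 in non-transduced cells, a difference of -0.27 against uninduced cells (SE 0.23). Lox, the lysyl oxidase that starts crosslinking, had 16.41 and 16.03 in MyoD + Dox cells, 16.89 and 17.20 in uninduced cells and 16.94 and 15.42 in non-transduced cells, again lowest on non-transduced array 2. Serpinh1 and Lox were listed by name, in a list chosen with earlier results of these data known.

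**Figure D4:**
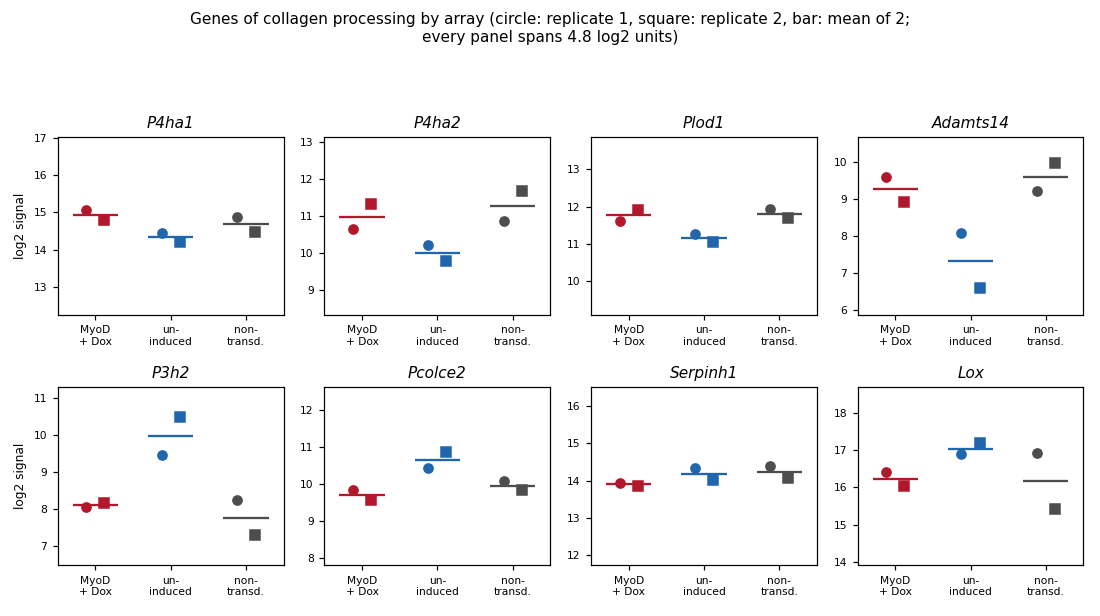
Log2 signal of 8 genes of collagen processing on each array, with circles for replicate 1, squares for replicate 2 and a bar at the mean of the 2; all panels span the same height. The uninduced arrays are lowest for P4ha1, P4ha2, Plod1 and Adamts14 and highest for P3h2 and Pcolce2.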

How the data were processed

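Gene expression was measured on 6 Clariom S mouse arrays, grouped by the submitters' labels. The authors deposited signal intensity values per probe set on a linear scale, and log2 was taken of each value. How they were normalized between arrays is not stated for the table; the median intensity of the 6 arrays lay between 45.4 and 48.4. Affymetrix Expression Console is the tool listed in the submitters' processing notes. The methods name the Transcriptome Analysis Console and a robust multi-array average for heat maps, but the sources used here do not give the program that produced the table. The labels name Trizol and the methods a column kit for RNA extraction. A genome build for the table is not given in these sources.

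Of 28846 probe sets, 19572 had 1 gene symbol in the platform annotation, 9274 had none and 0 had several. Where a gene had several probe sets (55 genes), only the one with the highest mean was used. No filter on dim genes was applied, and the number of arrays limits the precision. Two-sided tests came from limma 3.58.1 in R 4.3.3, with lmFit and eBayes fitted to the 6 arrays together (3 residual degrees of freedom for the common spread), and p-values were adjusted by Benjamini-Hochberg over 19505 genes at a threshold of 0.05. The steps were tested on simulated data.

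Members were taken by symbol, and values on every array, or the range where a chain was under background, are given for 17 chains of muscle and basement membrane matrix that were listed by name, of which Col12a1 was not analysed, and values for any other chain above background somewhere at an unadjusted p under 0.05. Of the processing genes, those at an unadjusted p under 0.05 are named, and Serpinh1 and Lox were listed by name. Other chains with values (Col5a3, Col8a2, Col9a3, Col11a2, Col16a1 and Col20a1) were added after their values were seen. Members and lists were chosen with earlier results of these data known. Promoter windows and neighbours came from RefSeq tables. The counts of genes and chains, the median over the chains and the differences of 19 chains above background on some array were recomputed after leaving out each array, with only the 4 arrays compared, with a replicate block, after quantile normalization or median centring, without the lowest 40% of genes, with trended robust eBayes, and with signals raised to background, and the counts also with averaged probe sets and by the methods' t-test.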

Additional observations from a re-analysis of the deposited data

How the results depend on the processing

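With 2 arrays a group, 3 residual degrees of freedom and 23 of 42 chains under background on every array, small differences could not be detected. Large differences could fail the test as well. Myod1 differed by 3.57 on the log2 scale between MyoD + Dox and uninduced cells, at an adjusted limma p of 0.670. In MyoD + Dox against uninduced cells 15 genes were called with the 4 arrays of the comparison alone, 14 of them higher and 0 of them collagen chains, and leaving out each array in turn gave 0 to 15 genes, with 15 without either non-transduced array. The chains at an unadjusted p then numbered 7 (Col1a2, Col5a1, Col5a2, Col6a1, Col6a2, Col6a6 and Col8a1) in place of 3, which is 16.7% of the chains and 16.7% of all genes, and 1 without MyoD + Dox replicate 2 or uninduced replicate 2 (2.23% and 2.53% of all genes). Against non-transduced cells the methods' t-test after adjustment called 1 gene, and leaving out an array gave 0 to 169 genes, 169 without non-transduced replicate 1, of which 0 were chains; chains at an unadjusted p numbered 11 without that array (13.8% of all genes), 5 without non-transduced replicate 2 (9.13% of all genes) and 0 without MyoD + Dox replicate 2 (1.57% of all genes), in place of 2. In uninduced against non-transduced cells leaving out an array gave 0 to 2191 genes, 2191 without non-transduced replicate 1, and 6 chains were then called (Col1a2, Col3a1, Col5a1, Col5a3, Col6a1 and Col6a2); the call rests on non-transduced replicate 2 as the only array of its group, assumed to vary like the other groups. With signals raised to background the median over the chains was 0.10 in MyoD + Dox against uninduced cells and 0.076 against non-transduced cells, since chains below background then take the difference between the backgrounds of the arrays. Replicate numbers are not said to mark a shared culture or day. Deviations of replicate 1 from its group mean correlated at -0.054, 0.41 and -0.34 between groups. With 2 arrays a group these values cannot decide whether the samples are paired. With the number as a replicate block 0 genes were called in each comparison, and the lowest adjusted limma p of a chain was 0.694, 0.999986 and 0.651. A crossed block of uninduced and non-transduced cells, chosen after seeing the data, called 0 genes.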
